A study of Mus musculus with 12 samples.

Results

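The ATF4 and unfolded protein response genes described here are Atf4, Ddit3, Hspa5, Xbp1, Asns, Herpud1, Hsp90b1 and Pdia4. Every probe set that the platform annotation pairs with one of these symbols was taken, which gave 9 of the 12488 probe sets on the array. They are 8 of the 8251 genes with a probe set of their own symbol. Each of 7 genes had 1 probe set and Asns had 2. A single probe set, the dimmer of Asns, lay below the intensity floor of 33.0 on every array, and the other 8 were among the 9641 probe sets tested. The 8 genes were chosen from the array intensities in part, with earlier results for all 6 groups known. Their values are therefore given as a description with standard errors and no p-value.

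Total RNA of mouse liver, taken 4 h after an injection into the peritoneum, had been hybridised to 12 Affymetrix arrays, 2 for each of 6 groups. Socs3-deleted mice, labelled albumin-cre(+) Socs3(-/fl), received interleukin-6 (IL-6) or phosphate-buffered saline (PBS). Control mice, labelled albumin-cre(-) Socs3(w/fl), received the same injections, and they also carry a floxed allele. Mice labelled Interferon-gamma-/-, here Ifng-null, received interferon-gamma (IFN-γ) or PBS. The albumin promoter drives Cre in hepatocytes, so other liver cells of the Socs3-deleted mice keep their floxed allele while carrying the null one. Socs3-deleted and control mice differ in both Cre and the null allele. The labels used here give no age, strain background or dose.

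Accumulation of unfolded protein in the endoplasmic reticulum (ER) is sensed by PERK, IRE1 and ATF6. PERK phosphorylates eIF2α, which slows general translation and favours translation of the transcription factor ATF4, and IRE1 splices the Xbp1 mRNA. ATF6 and spliced XBP1 raise transcription of ER chaperones and of genes for ER-associated degradation. Hepatocytes secrete most plasma proteins, so the liver carries a high load of client proteins through this system. ATF4 is controlled largely at translation and XBP1 by splicing, and a probe set signal reports neither, only the amount of RNA that its probes capture.

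Promoter sequence was examined because the 8 genes include textbook targets of ATF6, XBP1 and ATF4. All 8 matched a RefSeq promoter window (build GRCm38.p6, 250 bases before to 50 after the gene start) by Entrez identifier. Motifs were searched on both strands. The ER stress response element, CCAAT and CCACG with 9 bases of any kind between them, is the ATF6-type element, and 0.119% of 32851 mouse promoter windows held it. Of the 8 genes, Hspa5 had 1 copy and Hsp90b1 had 2. The shorter form ERSE-II, ATTGG and CCACG with 1 base between them, stood in 0.0365% of windows and in Herpud1. A C/EBP-ATF response element, TGATGNAA, the type bound by ATF4 dimers, stood in 3.97% of windows, in Asns and in Herpud1. The sequences below are shown because they carry these matches, which are in capitals.
Hspa5 (chr2:34771985-34772083, plus strand): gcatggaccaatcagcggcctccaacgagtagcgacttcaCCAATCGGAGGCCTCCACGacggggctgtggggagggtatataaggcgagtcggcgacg
Hsp90b1 (chr10:86705493-86705694, minus strand): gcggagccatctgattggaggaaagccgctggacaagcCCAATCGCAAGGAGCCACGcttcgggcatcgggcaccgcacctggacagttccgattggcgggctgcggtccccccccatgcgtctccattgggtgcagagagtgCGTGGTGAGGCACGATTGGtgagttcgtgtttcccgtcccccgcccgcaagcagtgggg
Herpud1 (chr8:94386337-94386427, plus strand): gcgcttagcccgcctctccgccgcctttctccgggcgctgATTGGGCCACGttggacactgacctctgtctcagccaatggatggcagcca
Asns (chr6:7693210-7693272, minus strand): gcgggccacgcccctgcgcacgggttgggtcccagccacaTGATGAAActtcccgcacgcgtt
The Hspa5 element began 65 bases before the gene start. Those of Hsp90b1 began 212 and 107 bases before it, the second on the opposite strand. The ERSE-II of Herpud1 began 52 bases before the start, and its C/EBP-ATF element, outside the printed stretch, 112 bases before. In Asns the C/EBP-ATF element began 23 bases before the start. The UPR element TGACGTGG, found in 0.676% of windows, the cAMP response element TGACGTCA, found in 1.79%, and the STAT-type palindrome TTCNNNGAA, found in 8.3%, each matched 0 of the 8 windows. A plain CCAAT box, which is also contained in the ER stress response element, stood in 6 of 8 windows and in 37.4% of all windows. These matches describe letters in the window and not occupancy.

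On the arrays the signal of Atf4 was highest in livers of Socs3-deleted mice after IL-6, where both arrays stood above the 10 others. Xbp1 had its highest group mean there too. The ER chaperone genes Hspa5, Hsp90b1 and Pdia4 and the degradation gene Herpud1 differed between the arrays of 1 group by as much as between the groups of Socs3-deleted and control mice. Hspa5 and Hsp90b1 were lower on all 4 arrays of Ifng-null mice than on the 8 others. Ddit3 and Asns varied least.

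Array medians lay between 80.6 and 85.7, and the arrays of a group correlated with Pearson's r of 0.98 to 0.99 over probe sets. The brighter Socs3 probe set read 74.4 to 106 on the 4 arrays of Socs3-deleted mice and 117 to 167 on the 4 of control mice. The Ifng probe set stayed below the floor on all 12 arrays and so checks nothing. The 10 hepatocyte marker genes were above the floor on all arrays, with summed intensities of 48523 to 63956. Replicate arrays of both PBS groups of the Socs3 cohort differed in content. Prss2, a trypsinogen gene of pancreatic acinar cells, read 1863 on Socs3-deleted PBS array 2 and 651 on control PBS array 2, and 22.4 to 27.3, below the floor, on the 10 others. Where values are given without these Prss2-high arrays, each of those PBS groups consists of array 1 alone. The labels do not say whether the 2 arrays of a group were separate mice, so the errors measure the spread between these arrays. In bulk liver, fewer cells of a type and less RNA per cell cannot be told apart.

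**Figure D1:**
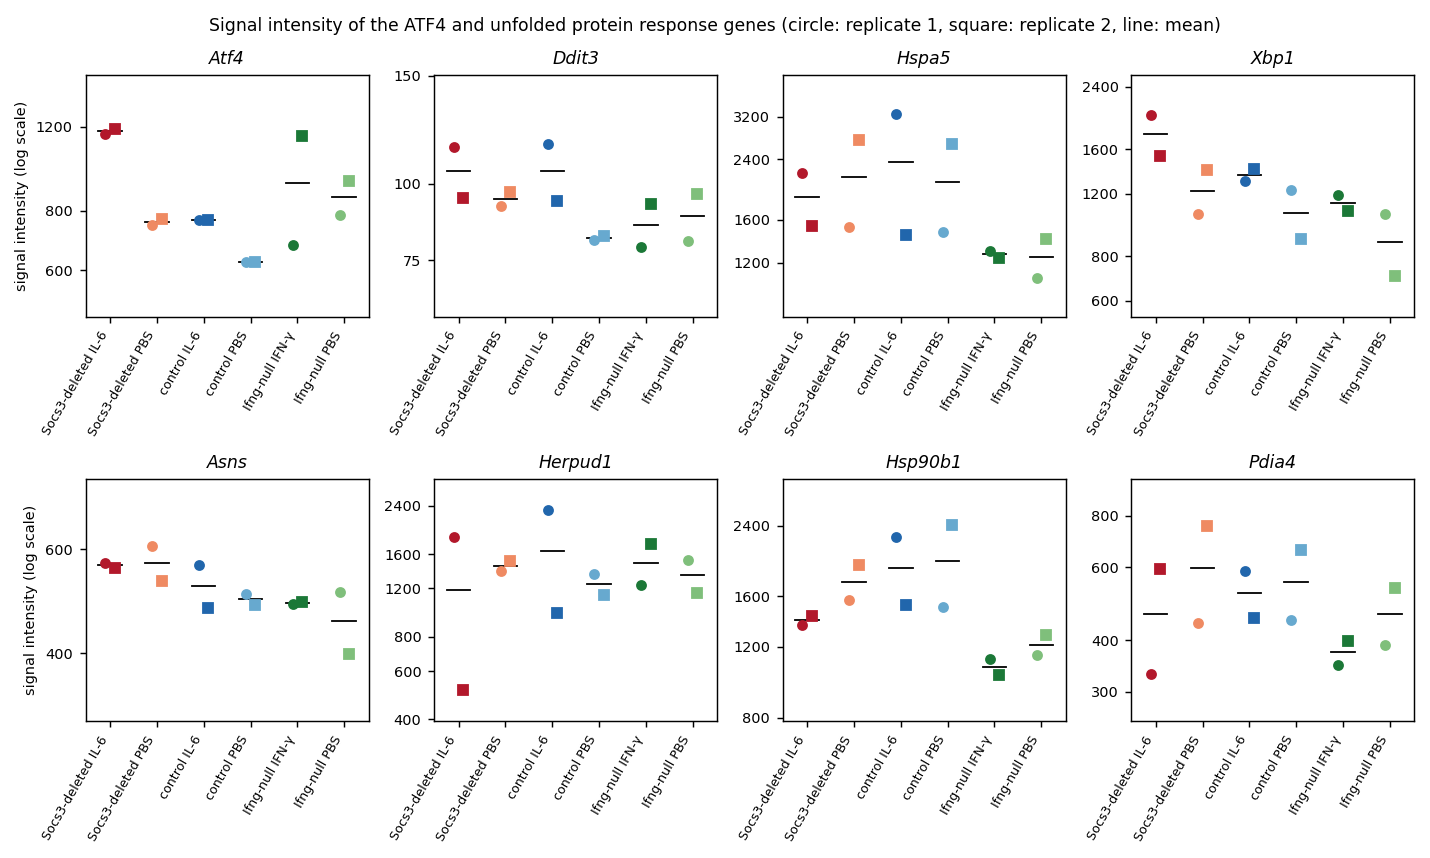
Deposited signal intensity (log axis) of each of the 8 genes in the 6 groups, with 1 point per array (circle for replicate 1, square for replicate 2) and a line at the group mean. Atf4 reads 1159 and 1188 in Socs3-deleted mice after IL-6, above all other points of its panel, while the 2 points of Hspa5 in control mice after IL-6 lie 2.27-fold apart.

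Atf4 encodes the transcription factor that carries the integrated stress response. It read 1159 and 1188 in Socs3-deleted mice after IL-6, against 748 and 769 in Socs3-deleted mice after PBS. In control mice it read 765 on both arrays after IL-6, against 625 and 623 after PBS. In either genotype the IL-6 and PBS arrays did not overlap. The mean log2 difference was 0.63 ± 0.20 (SE) in Socs3-deleted mice, a 1.55-fold higher level, and 0.29 ± 0.20 in control mice, a 1.23-fold higher level. The difference between these responses was 0.34 ± 0.29, so the larger value in Socs3-deleted mice exceeded the smaller by little more than its standard error.

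Socs3-deleted mice were also above control mice at both injections, by 0.28 ± 0.20 after PBS and by 0.62 ± 0.20 after IL-6, and neither pair of groups overlapped. These values keep their sign without the arrays with high Prss2, at 0.65 for IL-6 in Socs3-deleted mice and 0.29 in control mice. Ifng-null mice gave 678 and 1149 after IFN-γ, against 782 and 925 after PBS. The IFN-γ arrays enclosed the PBS arrays, with a log2 difference of 0.05 ± 0.20. After PBS the Ifng-null mice were above control mice by 0.45 ± 0.20, without overlap. By group mean the order was Socs3-deleted IL-6 (1174 ± 20.4, SD, n = 2), Ifng-null IFN-γ (914 ± 333), Ifng-null PBS (853 ± 101), control IL-6 (765 ± 0.0849), Socs3-deleted PBS (759 ± 14.1) and control PBS (624 ± 1.19). The first was separate from the others by a narrow margin, 1159 against 1149, and the last lay below the other 10 arrays. The 4 groups between them overlapped with at least 1 neighbour.

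Ddit3 encodes CHOP, a transcription factor induced downstream of ATF4. It read 115 and 94.7 in Socs3-deleted mice after IL-6, against 91.9 and 96.8 after PBS, and these overlap. Control mice gave 116 and 93.7 after IL-6, against 80.9 and 82.3 after PBS, without overlap. Ifng-null mice gave 78.8 and 92.6 after IFN-γ, against 80.7 and 96.3 after PBS. The whole range over 12 arrays was 1.48-fold. The log2 differences after the cytokine were 0.15 ± 0.15, 0.36 ± 0.15 and -0.05 ± 0.15 in Socs3-deleted, control and Ifng-null mice. The response of Socs3-deleted mice minus that of control mice was -0.21 ± 0.21, the opposite sign to that of Atf4. By group mean both IL-6 groups came first at 105, and control PBS came last at 81.6 ± 1.05 (SD, n = 2).

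Asns encodes asparagine synthetase, a classical ATF4 target. Its brighter probe set read 570 and 558 in Socs3-deleted mice after IL-6, against 608 and 531 after PBS. The control mice read 564 and 478 after IL-6, against 504 and 483 after PBS. Both IL-6 groups overlapped their PBS groups. Ifng-null mice gave 485 and 488 after IFN-γ, against 509 and 399 after PBS, also with overlap. The log2 differences were -0.01 ± 0.14, 0.07 ± 0.14 and 0.11 ± 0.14 in Socs3-deleted, control and Ifng-null mice. The highest of the 12 arrays was 1.52-fold above the lowest. By group mean Socs3-deleted PBS (569 ± 54.1, SD, n = 2) and Socs3-deleted IL-6 (564 ± 8.63) came first and overlapped each other, and all 4 of their arrays lay above those of control PBS (494 ± 14.8), Ifng-null IFN-γ (486 ± 2.46) and Ifng-null PBS (454 ± 77.9). The control IL-6 arrays overlapped groups on both sides of that gap. The second Asns probe set read 12.3 to 16.5 on the 12 arrays and was not tested.

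Xbp1 encodes the transcription factor whose mRNA IRE1 splices, and the probe set signal gives no share of the spliced form. It read 1999 and 1536 in Socs3-deleted mice after IL-6, against 1050 and 1400 after PBS. Control mice gave 1300 and 1411 after IL-6, against 1226 and 895 after PBS. Ifng-null mice gave 1191 and 1075 after IFN-γ, against 1054 and 703 after PBS. In all 3 genotypes both cytokine arrays stood above both PBS arrays, and the log2 differences were 0.53 ± 0.23, 0.37 ± 0.23 and 0.39 ± 0.23. The difference between the IL-6 responses was 0.16 ± 0.33, smaller than its error. Over 13 alternatives it ran over -0.07 to 0.60, with the other sign in 3, and the highest value came without the Prss2-high arrays. The response itself ran over 0.32 to 0.74 in Socs3-deleted mice and 0.14 to 0.60 in control mice. Socs3-deleted mice after IL-6 averaged 1767 ± 328 and stood above all 10 other arrays, next control IL-6 at 1355 ± 78.6 and last Ifng-null PBS at 878 ± 248 (SD, n = 2). Without the Prss2-high arrays, the difference of Socs3-deleted from control mice after PBS turned sign, to -0.22 against 0.21 with them.

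Hspa5 encodes BiP, the main ER chaperone of the Hsp70 class and a holder of the sensors in their inactive state. It read 2190 and 1534 in Socs3-deleted mice after IL-6, against 1526 and 2727 after PBS. In control mice it read 3265 and 1440 after IL-6, against 1475 and 2653 after PBS. In these 4 groups 1 array read between 1440 and 1534 and the other between 2190 and 3265. All 4 groups overlap, and the log2 differences after IL-6 were -0.15 ± 0.42 in Socs3-deleted mice and 0.13 ± 0.42 in control mice. Without the arrays with high Prss2, which are the high arrays of both PBS groups, they became 0.26 and 0.56.

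Ifng-null mice gave Hspa5 values of 1298 and 1238 after IFN-γ, against 1084 and 1407 after PBS. All 4 lay below the lowest of the 8 other arrays, which read 1440. After PBS, Ifng-null minus control mice was -0.68 ± 0.42 on the log2 scale, and -0.26 without the Prss2-high arrays. The strain background and the time of each cohort are not in the labels, and their part in this was not tested.

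Hsp90b1 encodes GRP94, the Hsp90 chaperone of the ER. It read 1360 and 1434 in Socs3-deleted mice after IL-6, against 1564 and 1915 after PBS, without overlap. The control arrays read 2247 and 1521 after IL-6, against 1508 and 2413 after PBS, with overlap. Ifng-null mice gave 1121 and 1019 after IFN-γ, against 1144 and 1281 after PBS, without overlap and below the 8 arrays of the other cohort. The log2 differences were -0.31 ± 0.24, -0.05 ± 0.24 and -0.18 ± 0.24. Without the Prss2-high arrays those for IL-6 were -0.16 in Socs3-deleted and 0.29 in control mice. After PBS, Ifng-null minus control mice was -0.66 ± 0.24, and -0.32 without those arrays.

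Pdia4 encodes ERp72, a protein disulphide isomerase that forms and rearranges disulphide bonds in client proteins. It read 331 and 595 in Socs3-deleted mice after IL-6, against 440 and 757 after PBS. Control mice gave 588 and 453 after IL-6, against 448 and 660 after PBS. Both pairs of groups overlap. Ifng-null mice gave 349 and 398 after IFN-γ, against 389 and 535 after PBS, again with overlap. The log2 differences were -0.38 ± 0.34, -0.08 ± 0.34 and -0.29 ± 0.34. Without the Prss2-high arrays those for IL-6 were 0.01 in Socs3-deleted and 0.20 in control mice. Group means ran between 374 ± 34.5 in Ifng-null mice after IFN-γ and 599 ± 224 in Socs3-deleted mice after PBS (SD, n = 2), and neighbours in that order overlapped.

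Herpud1 encodes an ER membrane protein that recruits components of ER-associated degradation. It read 1850 and 513 in Socs3-deleted mice after IL-6, against 1388 and 1508 after PBS. In control mice it read 2313 and 980 after IL-6, against 1356 and 1137 after PBS. In both IL-6 groups 1 array lay above and 1 below both PBS arrays. Ifng-null mice gave 1231 and 1735 after IFN-γ, against 1520 and 1157 after PBS. The log2 differences were -0.57 ± 0.54, 0.28 ± 0.54 and 0.14 ± 0.54. Leaving out 1 array of a group moved the value in Socs3-deleted mice across the range of -1.50 to 0.35. A range of 4.51-fold over the 12 arrays was the widest of the 8 genes, and no group stood apart.

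The within-group SD on the log2 scale was pooled over the 6 groups. It ranked Herpud1 (0.67) at the 99.1th, Hspa5 (0.52) at the 98.4th and Pdia4 (0.41) at the 97.1th percentile of the tested probe sets. Hsp90b1 (0.28), Xbp1 (0.27) and Atf4 (0.23) followed at percentiles of 89.3, 89.1 and 81.9. Ddit3 (0.16) and Asns (0.14) lay near the median of all tested probe sets, 0.15. The standard error of a difference in this design follows that spread, so a given fold difference was measured least precisely for Herpud1 and Hspa5.

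**Figure D2:**
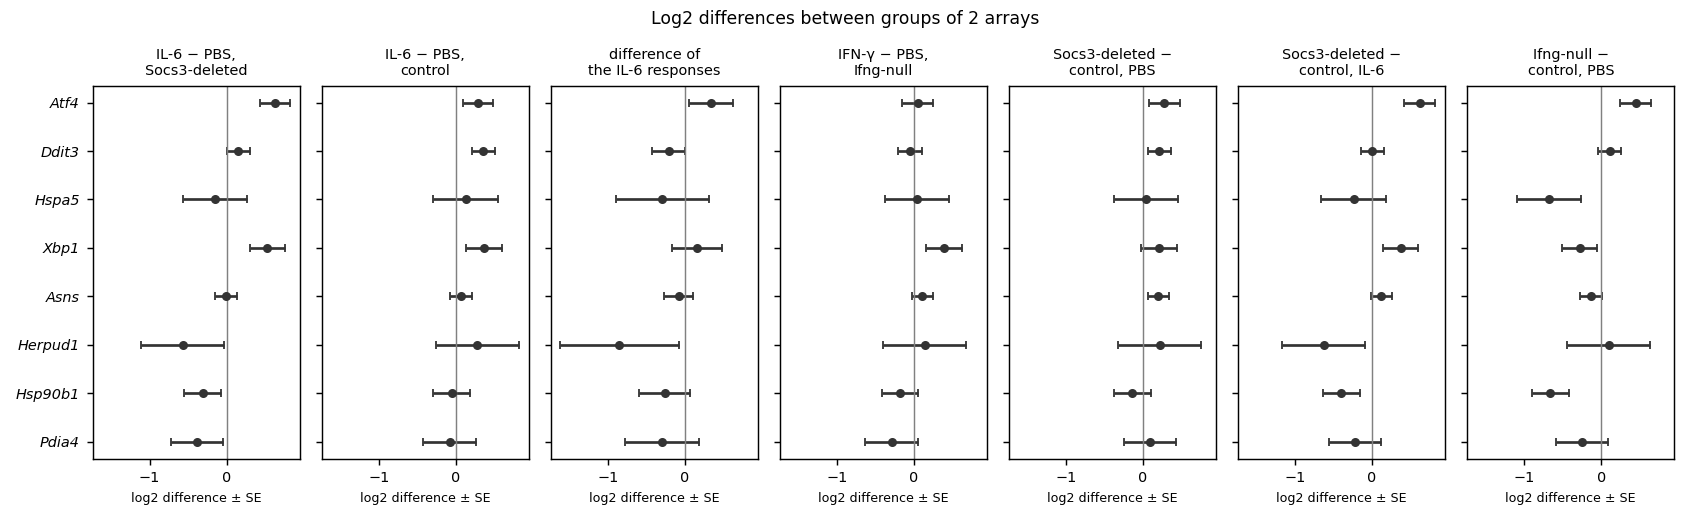
Log2 difference (horizontal axis, point) with its standard error (bar) for each of the 8 genes in 7 comparisons of groups of 2 arrays. Atf4 lies at 0.63 for IL-6 against PBS in Socs3-deleted mice and at 0.62 for Socs3-deleted against control mice after IL-6, while the bars of Herpud1 span the widest range.

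The fit over all probe sets was limma's moderated test with Benjamini-Hochberg adjustment at 0.05. For IL-6 against PBS in Socs3-deleted mice it called 1.17% of the 9641 probe sets and 0 of the 8 genes. Over all probe sets 1044 had an unadjusted p under 0.05. In control mice IL-6 called 0% of all probe sets, with 248 at an unadjusted p under 0.05, and 0 of the 8 genes. The difference between the IL-6 responses was called for 0.0415% and IFN-γ against PBS for 0.653%, again with 0 of the 8 genes.

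Between genotypes, Socs3-deleted against control mice gave 0.954% called after IL-6 and 0% after PBS, where 402 probe sets had an unadjusted p under 0.05. Ifng-null against control mice after PBS gave 0%, with 297 under 0.05 before adjustment. None of the 8 genes was called in these. With so few probe sets called, a count of 0 among 8 genes is near the background, and nothing is read from it.

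The direction of the 8 genes was mixed and moved with the Prss2-high arrays. After IL-6, 3 of 8 were higher than after PBS in Socs3-deleted mice, with a median log2 difference of -0.08 (median over all genes tested 0.00), and 6 of 8 in control mice, with a median of 0.21 (all genes -0.01). Without the Prss2-high arrays these were 5 of 8 with a median of 0.10 and 8 of 8 with a median of 0.25. All 8 genes were then compared with PBS array 1 alone in each genotype, so the shift is not a more precise estimate. The difference between the IL-6 responses was positive for 2 of 8, with a median of -0.24 (all genes 0.00). After IFN-γ 5 of 8 were higher, with a median of 0.05 (all genes -0.04). After PBS 7 of 8 were higher in Socs3-deleted than in control mice, with a median of 0.21 (all genes -0.01), or 6 of 8 with a median of 0.05 without the Prss2-high arrays. After IL-6 3 of 8 were higher in Socs3-deleted than in control mice, with a median of -0.11 (all genes -0.02). After PBS 3 of 8 were higher in Ifng-null than in control mice, with a median of -0.19 (all genes 0.00), or -0.10 without those arrays. The comparisons within the Socs3 cohort share arrays, and both genotype comparisons after PBS share the control PBS arrays.

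Across the 12 arrays the 8 genes fell into no single pattern. The highest Pearson's r of log2 intensity was that of Hspa5 with Hsp90b1 at 0.87. Next came Hsp90b1 with Pdia4 at 0.74 and Xbp1 with Asns at 0.65. Hspa5 with Pdia4 stood at 0.61 and Ddit3 with Hspa5 at 0.57. Atf4 correlated with its downstream gene Ddit3 at 0.54 and with its target Asns at 0.12. Against the chaperones Atf4 gave -0.16 for Hspa5 and -0.45 for Hsp90b1. The points share 6 groups and any difference in sample content, so these values describe the 12 arrays.

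The genes most like each of the 8 over the 12 arrays were sought among 7871 probe sets with 1 symbol above the floor on all arrays. For Hspa5 they were Creld2 (r = 0.95) and Manf (r = 0.93), which encode ER-resident proteins induced by ER stress. Pdia4 was nearest to Ssr1 (r = 0.88), a subunit of the translocon-associated protein complex, and to Pdia6 (r = 0.87), another disulphide isomerase. Ddit3 was nearest to Bet1l (r = 0.86), a transport SNARE, and to Dnajb9 (r = 0.85), a co-chaperone of BiP.

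Atf4 was nearest to Actn1 (r = 0.97), which encodes the cytoskeletal protein alpha-actinin, and to Smn1 (r = 0.94). The platform's suffixes mark both probe sets as ones that may capture related sequences. Actn1 read 360 on both arrays of Socs3-deleted mice after IL-6, against 211 and 166 after PBS, and 155 and 286 in Ifng-null mice after IFN-γ, against 184 and 245 after PBS. Actn1 had its 2 highest arrays in the same group as Atf4 and split the IFN-γ arrays in the same direction. It was chosen for its likeness to Atf4 over these same arrays, so this is not separate evidence. Xbp1 was nearest to Pirb (r = 0.92), an inhibitory receptor of myeloid cells, and to the kinase gene Jak3 (r = 0.92), whose probe set also carries such a suffix. The 9 macrophage and Kupffer cell markers on the array were all above the floor, with summed intensities of 2915 to 3337 in Socs3-deleted mice after IL-6 and 1760 to 2610 on the 10 other arrays. Of the 9, Cd14 alone had both of these arrays above the 10 others, at 775 and 842 against 229 to 328. The sum of the other 8 markers was 2563 and 2073 in Socs3-deleted mice after IL-6 and 1507 to 2299 on the 10 other arrays, which overlap. Asns was nearest to Mt3 (r = 0.94) and Hipk1 (r = 0.90), Herpud1 to Cln8 (r = 0.91) and Mtmr14 (r = 0.88), and Hsp90b1 to Eloa (r = 0.95) and Rbmx (r = 0.90).

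The rest of the pathway was followed in 144 further genes, of which 102 were tested, listed with earlier results of these arrays known. A single gene was called in any of the 7 comparisons. Wars, which encodes tryptophanyl-tRNA synthetase and is known as an interferon-inducible gene, read 769 and 655 in Ifng-null mice after IFN-γ, against 292 and 258 after PBS. It rose by 1.37 ± 0.17 on the log2 scale (limma, adjusted p = 0.00774). Of its other probe sets, 1 gave 2.30 (limma, adjusted p = 0.0209) and 1 gave 0.40 (limma, adjusted p = 0.413). The call for the first held in 5 of 9 alternatives, whose adjusted p ran over 0.0105 to 0.0900. It was lost without Ifng-null PBS array 1, without Ifng-null PBS array 2, without a filter on dim probe sets and without the Prss2-high arrays. The background for IFN-γ was the 0.653% given above, and 18 other synthetase genes were not called.

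Of the sensor and switch genes, 10 of 18 listed were tested and 0 were called in any comparison, with at most 1 at an unadjusted p under 0.05. That 1 came for IL-6 in Socs3-deleted mice, where 1044 of all 9641 probe sets were under 0.05. Atf6 read 75.2 ± 3.87 in Socs3-deleted mice after IL-6, against 92.9 ± 1.27 after PBS (SD, n = 2). Eif2ak2, the interferon-inducible eIF2α kinase PKR, read 55.3 and 124 in Socs3-deleted mice after IL-6, against 51.7 and 47.4 after PBS (log2 0.74, limma adjusted p = 0.422). Its IL-6 arrays lay above the PBS arrays and differed from each other by 2.24-fold.

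Among 15 tested genes downstream of ATF4 and CHOP, 0 were called, with at most 3 per comparison at an unadjusted p under 0.05. The 3 came for Socs3-deleted against control mice after IL-6, where 876 of all 9641 probe sets were under 0.05. Atf3, a stress-inducible transcription factor gene, read 141 and 292 in Socs3-deleted mice after IL-6, against 68.2 and 63.5 after PBS. The difference was 1.63 ± 0.33 on the log2 scale (limma, adjusted p = 0.0523), and over 9 alternatives its adjusted p ran over 0.0138 to 0.405. Its other probe sets gave 0.42 and 0.02, and the platform's suffix marks the brightest as one that may capture related sequences. In control mice Atf3 read 84.1 and 72.5 after IL-6, against 73.9 and 84.2 after PBS, and the difference between these responses was 1.64 ± 0.46 (limma, adjusted p = 0.766). After IFN-γ Atf3 read 125 and 198 in Ifng-null mice, against 74.6 and 53.3 after PBS (limma, adjusted p = 0.206). On its brightest probe set the cytokine arrays of Socs3-deleted and Ifng-null mice stood above their PBS arrays, and those of control mice overlapped. Ddit4, which encodes an inhibitor of mTORC1, read 342 and 116 in Socs3-deleted mice after IL-6, against 233 and 112 after PBS, with overlap.

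In 20 tested ER chaperone and folding genes and 25 tested translocation and ER-associated degradation genes, limma called 0, with at most 1 and 2 per comparison at an unadjusted p under 0.05. The 2 came for IL-6 in Socs3-deleted mice and again for Socs3-deleted against control mice after IL-6. There 1044 and 876 of all 9641 probe sets were under 0.05. After IL-6 in Socs3-deleted mice 6 of the 20 and 6 of the 25 were higher than after PBS, with medians of -0.20 and -0.18. In control mice 12 of 20 and 17 of 25 were higher, with medians of 0.04 and 0.06, while the median over all genes tested was 0.00 and -0.01 in these comparisons. The direction in Socs3-deleted mice turned without the Prss2-high arrays, where 12 of the 20 and 17 of the 25 were higher after IL-6, with medians of 0.05 and 0.06. In control mice 16 of 20 and 19 of 25 were then higher, with medians of 0.17 and 0.11. In each genotype these later values compare with PBS array 1 alone. Derl2, part of the retrotranslocation machinery, had the lowest adjusted p of the genes named from these lists, at a log2 difference of -0.58 ± 0.17 in Socs3-deleted mice after IL-6 (limma, adjusted p = 0.178). It read 170 and 157 there, against 209 and 286 after PBS. Sel1l, an adaptor of the degradation ligase, read 204 and 178, against 217 and 359 after PBS. Both were below their PBS arrays without overlap, and the higher PBS array was the one with high Prss2. In control mice Dnajb9 read higher after IL-6, at 518 and 337 against 165 and 239 after PBS, without overlap. The log2 difference was 1.07 ± 0.46, not called, and its other probe set gave 0.96. In Socs3-deleted mice Dnajb9 read 534 and 295 after IL-6, against 210 and 568 after PBS, with overlap. The 13 tested cytosolic and mitochondrial heat shock genes also had 0 calls, with at most 3 under 0.05 before adjustment. The 3 came for IFN-γ against PBS, where 668 of all 9641 probe sets were under 0.05. Hspa1b, an inducible Hsp70 gene with the near-identical copy Hspa1a, read 513 and 428 after IFN-γ, against 112 and 201 after PBS in Ifng-null mice (limma, adjusted p = 0.591).

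Motifs in the matched promoters of these pathway genes were counted the same way. Of 102 genes, 81 matched a window. The ER stress response element stood in 5 of them, Dnajc3, Canx, Pdia6, Creld2 and Ero1b, and ERSE-II in Dnajb11. The C/EBP-ATF element stood in 10, among them Atf3, Trib3 and the synthetase genes Aars, Gars, Iars, Tars and Yars.

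**Figure D3:**
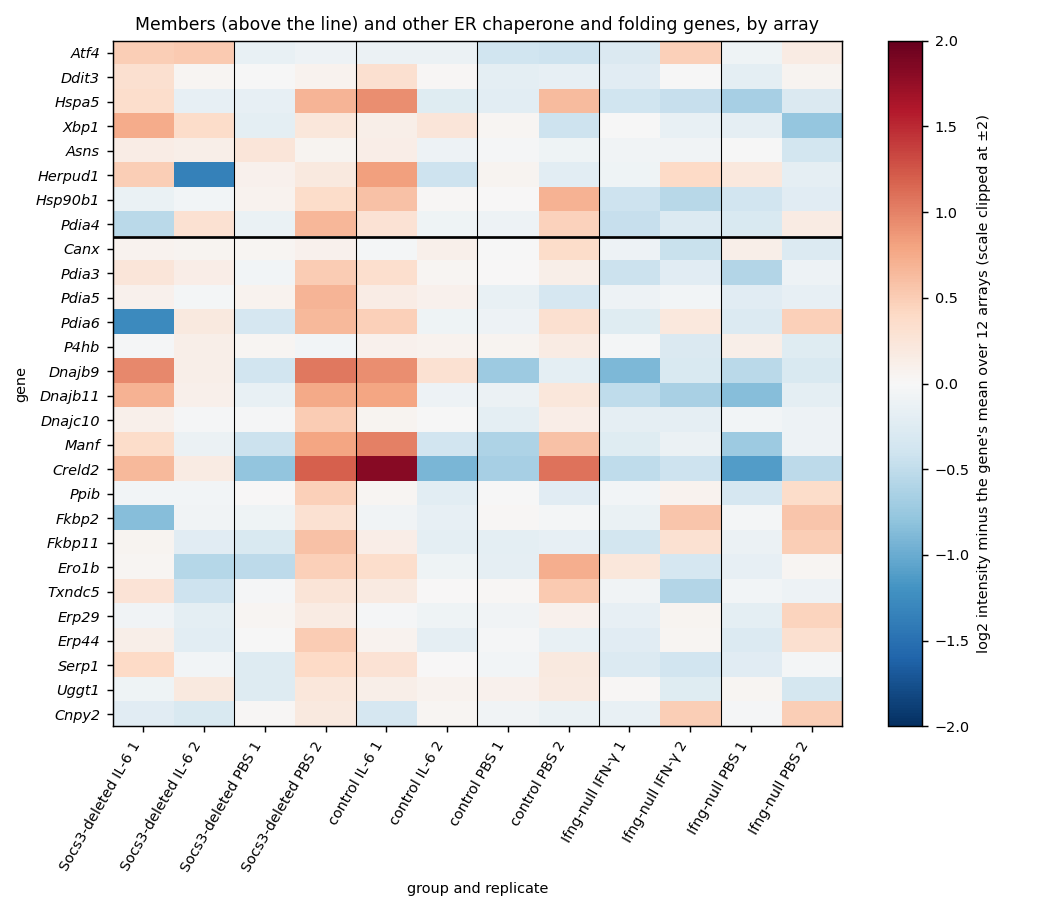
Log2 intensity minus the gene's mean over 12 arrays (colour, clipped at 2 either way) for the 8 genes above the line and 20 other ER chaperone and folding genes below it, with 1 column per array. Socs3-deleted PBS array 2 is higher than array 1 for 19 of the 20 genes, and control IL-6 array 1 is higher than array 2 for 18 of 20.

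The spread of the chaperone genes between arrays of a group was shared by many genes of that class. In Socs3-deleted mice after PBS, 19 of 20 chaperone genes and 24 of 25 translocation and degradation genes read higher on array 2, by medians of 0.55 and 0.45 on the log2 scale, against 37.8% of all genes tested. In control mice after IL-6, 18 of 20 chaperone genes and 12 of 13 heat shock genes read higher on array 1, by medians of 0.25 and 0.39, against 46.5% of all genes. In control mice after PBS 15 of 20 read higher on array 2, and in Ifng-null mice after PBS 15 of 20, by medians of 0.20 and 0.50, against 46.3% and 48.6% of all genes. In Socs3-deleted mice after IL-6 16 of 20 read higher on array 1, by a median of 0.13, against 58.7% of all genes. In Ifng-null mice after IFN-γ the split was the least one-sided, with 12 of 20 higher on array 2 against 46.9%. By count of these 20 genes, array 1 was thus the higher more often in both IL-6 groups and array 2 in the others. Not every chaperone gene followed. After IFN-γ Hspa5 (1298 and 1238) and Hsp90b1 (1121 and 1019) were higher on array 1. In Socs3-deleted mice after IL-6 Pdia4 (331 and 595) and Hsp90b1 (1360 and 1434) were higher on array 2.

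Creld2, the gene most like Hspa5, showed the widest split. It read 449 and 320 in Socs3-deleted mice after IL-6, against 166 and 652 after PBS. In control mice it read 1011 and 152 after IL-6, against 181 and 608 after PBS. Its arrays within control IL-6 differed by 6.66-fold. Manf, which encodes a secreted ER stress protein, read 1560 and 599 on these 2 arrays. Hsph1, a heat shock co-chaperone gene, read 616 and 197. Hspa5, Creld2, Manf and Hsph1 were all higher on control IL-6 array 1. Creld2 and Manf were chosen for their likeness to Hspa5 over these same arrays, so their agreement with it is not separate evidence.

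Sample content moved with part of this split. The 12 pancreatic acinar genes on the array summed to 22374 on Socs3-deleted PBS array 2 and 10034 on control PBS array 2, and to 2365 to 2654 on the other 10. Hspa5 read 2727 and 2653 on those 2 arrays, among its 3 highest values. On control IL-6 array 1, where Hspa5 was highest at 3265, the acinar sum was 2483 and Prss2 read 25.9, below the floor. Haemoglobin signal also differed, with Hba-a1 at 4864 and 6389 on the Prss2-high arrays and at 364 on control IL-6 array 1. It read 3584 on Socs3-deleted IL-6 array 2 and 3649 on control IL-6 array 2, where Hspa5 was the lower of its group at 1534 and 1440. High Hba-a1 therefore accompanied high Hspa5 in both PBS groups of the Socs3 cohort and low Hspa5 in both of its IL-6 groups. Alas2, the other listed erythroid gene on the array, went against Hba-a1 in both PBS groups. It read 560 and 640 on the Prss2-high arrays, against 672 and 784 on array 1 of these groups. In control mice after IL-6 it also went against Hba-a1, at 671 on array 1 and 591 on array 2. In Socs3-deleted mice after IL-6 it read 335 and 592, in the direction of Hba-a1. Summed B and plasma cell markers ran between 765 and 1026, with 6 of 8 above the floor on all arrays, and neutrophil markers between 520 and 586, with 4 of 7. The part of acinar or blood RNA in the chaperone values of the PBS arrays was not tested.

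**Figure D4:**
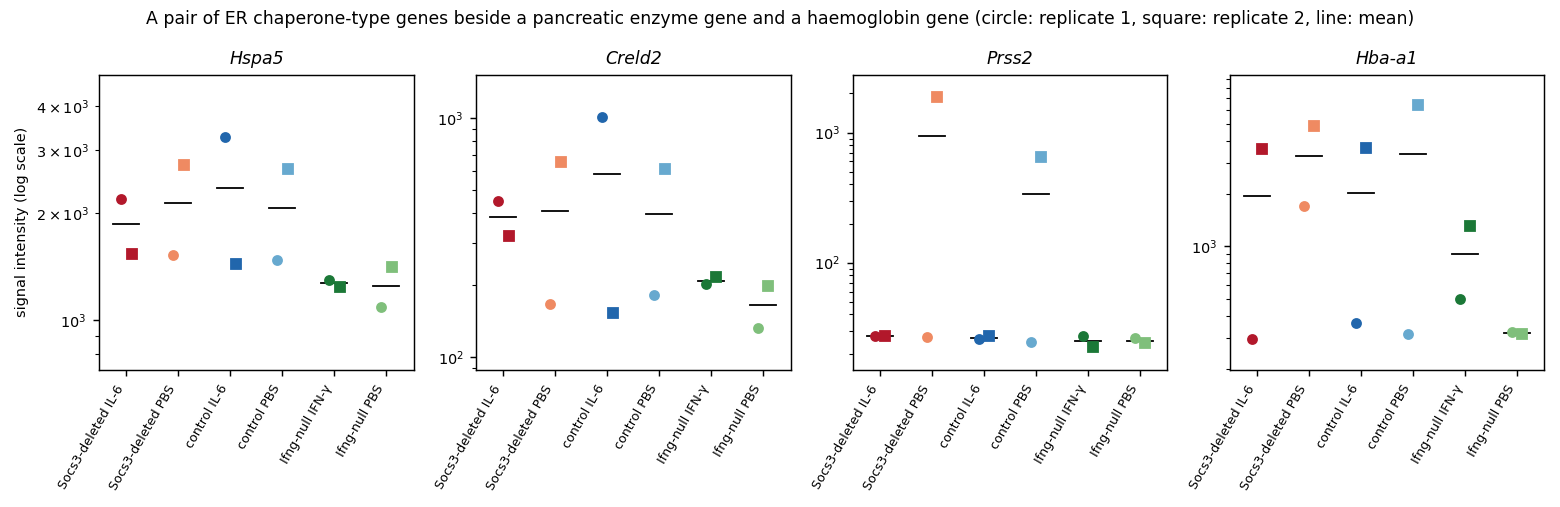
Signal intensity (log axes) of Hspa5, Creld2, the pancreatic enzyme gene Prss2 and the haemoglobin gene Hba-a1 in the 6 groups, with 1 point per array (circle for replicate 1, square for replicate 2) and a line at the mean. The arrays at 1863 and 651 for Prss2 are also high for Hspa5, and the highest Hspa5 array, 3265 in control mice after IL-6, has Prss2 at 25.9.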

How the data were processed

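The deposited value table holds 1 linear signal intensity per probe set and array. The software, background correction and scaling by which the authors made these deposited intensities are not given in the sources used here. Groups and replicate numbers came from the sample labels. Of 12488 probe sets, 66 controls were left out. A floor of 33.0, which is the 25th percentile of all intensities, replaced lower values before log2 was taken, and 9641 probe sets above it on at least 2 arrays were tested. Near the floor, changes are understated. Gene names came from the platform annotation (10855 probe sets with 1 symbol, 396 with several, which name no gene), and the probe set with the highest mean stood for a gene in a list (6976 genes). A model of 6 group means over all 12 arrays was fitted with limma 3.58.1 in R 4.3.3 (lmFit, eBayes), with 6 residual and 3.38 prior degrees of freedom, two-sided, adjusted by Benjamini-Hochberg over the 9641 probe sets. The code was tested on simulated data. An exact permutation test of 2 against 2 arrays cannot go below p = 0.333, so none was used.

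The 8 genes, the pathway lists and the alternatives were chosen with earlier results of these data known. Named were every probe set of the 8 genes, up to 4 called genes per pathway list and comparison or, where a list had none, the 2 with the largest difference, and the 2 genes most like each of the 8. Other genes given beside these (Manf, the haemoglobin and pancreatic genes) are from the likeness or marker lists. Alternatives were quantile normalization, a floor at the 50th percentile, no filter, the replicate number as a block, leaving out each array and leaving out the 2 arrays with high Prss2. The last leaves array 1 alone in the PBS groups of Socs3-deleted and control mice.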

Additional observations from a re-analysis of the deposited data

How the results depend on the processing

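The log2 differences of Atf4 kept their sign under every alternative run, except for IFN-γ against PBS, which ran over -0.33 to 0.43. Those of Hspa5 for IL-6 against PBS ran over -0.57 to 0.26 in Socs3-deleted and -0.46 to 0.72 in control mice. Of the pathway genes, 1 was called for IFN-γ, against 0 without the filter on dim probe sets and 0 without the 2 Prss2-high arrays. Leaving out each array gave 0 to 2 for IFN-γ, for IL-6 in Socs3-deleted mice and for Socs3-deleted against control mice after IL-6, and 0 in the other 4 comparisons. Over all probe sets, IL-6 in Socs3-deleted mice called 113, against 28 without the filter, 9 without the Prss2-high arrays and 33 to 107 leaving out an array. IFN-γ called 63, against 8, 19 and 20 to 63 in the same order. Socs3-deleted against control mice after IL-6 called 92, against 22, 35 and 13 to 95. The difference between the IL-6 responses called 4, against 8 with a floor at the 50th percentile, 0 without the Prss2-high arrays and 1 to 15 leaving out an array. Leaving out an array gave 0 to 8 for IL-6 in control mice and for the PBS comparison of Socs3-deleted with control mice. It gave 0 for Ifng-null against control mice. Fewer samples enter the fits without arrays; the cause of the other shifts was not tested. With the replicate number as a block, 123 probe sets were called for IL-6 in Socs3-deleted mice, 60 for IFN-γ, 104 for Socs3-deleted against control mice after IL-6 and 6 for the difference, and no other call moved. The labels give no shared animal, litter or day behind a number and there are only 2 numbers, so the numbers were not taken as pairs. Deviations of same-numbered arrays correlated between cytokine and PBS groups with r of 0.12 (Socs3-deleted), 0.14 (control) and 0.66 (Ifng-null), and between Socs3-deleted and control PBS with 0.31, so a shared source behind some numbers is not settled by these data. A crossed replicate block, added after seeing the data, called 0 for Ifng-null against control mice after PBS. With 2 arrays a group, differences of the size of the chaperone genes' standard errors could not be resolved.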
